A study of Mus musculus with 2 samples.

Results

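The genes described here build the BBSome, the ciliary transition zone and the adjoining ciliary membrane, in the mandibular prominence of mouse embryos that lack Kif3a in neural crest cells. They were given as a list of 37 gene symbols, and a gene counted as found when both deposited tables carried its symbol. Of these, 36 were found among 30723 genes in all. Cep41, which modifies axonemal tubulin, was the exception under its listed symbol. The 36 comprised 11 BBSome genes, 18 transition zone genes, 3 ciliary membrane genes and 4 further ciliary genes.

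The mandibular prominence is the paired facial swelling that forms the lower jaw. The series holds 2 libraries of total RNA, 1 per group, each from 10 pooled embryos on a mixed CD1 background and labelled E11.5. In the mutant library the genotype was Kif3a f/f ; Wnt1-Cre, a floxed Kif3a allele on both chromosomes deleted by a Cre recombinase active in neural crest and its descendants. Epithelium, muscle, endothelium and blood in the same swelling do not come from neural crest and keep the floxed gene intact. The other library was labelled control with no further genotype, so whether those embryos carried a floxed allele or Cre was not given. The tables as named by the submitters place the mutant at E11 and the control at E11.5, in different sequencing runs. Stage, run and genotype therefore cannot be told apart. With 1 library per group there was no replicate check and no test, and all differences below compare these libraries, not the conditions.

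Primary cilia are antenna-like projections built around a microtubule axoneme. Kif3a is a motor subunit of heterotrimeric kinesin-2, which carries intraflagellar transport trains from the base of the cilium to its tip. The BBSome is a coat-like complex that rides on those trains and moves membrane receptors, above all out of the cilium. The transition zone is the gate at the ciliary base, where MKS and NPHP proteins join the axoneme to the membrane and limit which proteins pass. In the face, cranial neural crest cells use primary cilia to transduce Hedgehog signals, and inherited defects in many of these genes cause Bardet-Biedl, Meckel and Joubert syndromes.

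The promoters were searched for the X-box, the sequence bound by RFX transcription factors, which are known activators of ciliary genes. RefSeq promoters on GRCm38.p6, from 250 bases before to 50 bases after the start site, were matched by symbol for 36 of the 37 listed genes, Cep41 included. Tmem67 was not matched. A paired X-box, GTTNCC followed after 0 to 3 bases by GGNAAC on either strand, was found in 6 of the 36 (16.7%), against 253 of all 27025 genes with a promoter (0.936%) and 0.886% of protein-coding genes. Its better conserved arm alone, GTTGCC on either strand, was found in 16 of 36 (44.4%), against 14.1% of all genes. Arm and paired form can overlap. The 6 paired sites are shown because they match both arms of the pattern searched. Each is given with the bases around it, 5′ to 3′ on the gene's strand and with the paired site in capitals.
Ahi1 chr10:20952544-20952596 plus strand: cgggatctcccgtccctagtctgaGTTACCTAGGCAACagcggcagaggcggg
Bbs7 chr3:36613473-36613534 minus strand: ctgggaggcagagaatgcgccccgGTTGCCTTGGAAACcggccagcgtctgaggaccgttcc
Cep41 chr6:30693842-30693904 minus strand: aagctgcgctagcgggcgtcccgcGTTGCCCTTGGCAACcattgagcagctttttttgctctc
Mks1 chr11:87853167-87853228 plus strand: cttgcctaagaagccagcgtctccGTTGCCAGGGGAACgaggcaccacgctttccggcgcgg
Tctn1 chr5:122264411-122264448 minus strand: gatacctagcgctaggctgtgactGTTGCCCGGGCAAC
Tctn3 chr19:40612335-40612395 minus strand: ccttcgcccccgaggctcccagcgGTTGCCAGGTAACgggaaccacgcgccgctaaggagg

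The sites lay on both sides of the start site. With the first transcribed base as 1, the Ahi1 site spanned bases 22 to 35 and the Tctn1 site bases 37 to 50. The Mks1 site lay at -24 to -11, the Bbs7 site at -121 to -108, the Cep41 site at -131 to -117 and the Tctn3 site at -140 to -128. The sequence TATAAA within 60 bases upstream was found in 0 of the 36 genes, against 3.44% of all genes. The 36 genes had 45 promoter windows, and a gene counted for a sequence if any of its windows held it. Taking each gene's window with the most CpG dinucleotides, the median over genes was 23.5 CpG, against 8 over all genes and 15 over protein-coding genes. A match describes letters in a window and is not a binding site.

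Kif3a itself was lower in the mutant library, at 5.39 FPKM against 11.46 FPKM in the control library, a ratio of 0.471 with a counting interval of 0.431 to 0.514. FPKM, fragment counts corrected for transcript length and library size, were summed here over the transcripts of a gene. The intervals are exact binomial ones at 95% on fragments approximated from the deposited coverage, rescaled so that the observed fragments give the FPKM ratio. They cover counting error only. Where fragments are divided differently among transcripts, the plain ratio of fragments can lie outside the interval. Kif3a had about 803 fragments in the mutant and 1456 fragments in the control. The measure covers whole transcripts at chr11:53567379-53604244 (GRCm38, as are all positions here) and not the floxed exon alone, and the tissue holds cells that Cre does not reach. In bulk tissue, fewer cells of a type and less RNA per cell cannot be told apart.

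The libraries held about 24500000 fragments (mutant) and 24700000 fragments (control). Of 30723 genes, 12259 had a mean of at least 1 FPKM and were compared, on the scale log2((mutant + 1)/(control + 1)), which understates differences of low genes. The median gene stood at -0.13 on that scale and the middle 80% of genes between -0.47 and 0.28. Markers of several tissues differed between the libraries. Summed FPKM were 7316 in the mutant and 25900.3 in the control for 9 erythroid genes. They were 13.7 in the mutant and 45.2 in the control for 9 skeletal muscle genes, 54.3 in the mutant and 83.6 in the control for 8 endothelial genes, and 12.7 in the mutant and 22.6 in the control for 8 macrophage and leukocyte genes. The 11 mandibular mesenchyme markers summed to 811 FPKM in the mutant and 896 FPKM in the control, none below 25.7 FPKM in either library. Their log2 ratios ranged from -0.43 for Barx1 to 0.42 for Msx2. The 12 oral epithelium markers summed to 212 FPKM in the mutant and 196 FPKM in the control, and the 9 neuronal ones to 20.1 FPKM in the mutant and 20.6 FPKM in the control. Genes within these lists lay on both sides. Krt15 had a log2 ratio of -1.13 and Krt18 of 0.48 among the epithelial markers, and Nefl of -0.56 and Isl1 of 0.70 among the neuronal ones. The 6 Schwann cell and glial markers summed to 7.51 FPKM in the mutant and 11.1 FPKM in the control. The neuronal transcription factor Pou4f1 was listed at 0 in the control, and no other marker was. The part of these cell types in the values below was not tested.

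All 36 genes were above the 1 FPKM mean, and none of them differed by 2-fold or more on the log2 scale given above. Among the 12259 genes, 2.13% were that far apart, 0.767% with the higher value in the mutant and 1.36% with the lower. Kif3a, which is not among the 36, also missed this bar, at -0.96 on that scale with a plain FPKM ratio of 0.471. The plain ratios of the 36 ran from 0.613 for B9d2 to 1.43 for Cep290. On the log2 scale the 36 genes ranged from -0.63 for B9d2 to 0.42 for Cep290, with a median of -0.07 against -0.13 over all genes. The interquartile range of their log2 ratios was 0.24, against 0.37 over all genes. Relative to the median gene, 14 of the 36 lay below it and 22 above it. This majority depended on the filter. Without it the median gene stood at -0.05, and 16 of the 36 lay above it. Taking each ratio as it stood, 24 were below 0 and 12 above, and 67.9% of all genes were below 0. At a lower bar of 1.25-fold from the median gene, 4 of 36 were higher (Cep290, Ahi1, Bbs2 and Bbs5), and 14.7% of all genes were. Below it by 1.25-fold lay 2 of 36 (B9d2 and Bbs7), and 10.9% of all genes. In either direction that made 6 of 36, against 25.6% of all genes. Both shares of members, 11.1% and 5.56%, were under those of all genes. For 22 of the 36 the counting interval of the ratio spanned 1. The median gene had a plain FPKM ratio of 0.902, so an interval read against 1 is not read against the median gene. The interval of Mkks, 0.772 to 0.935, left out 1 but held 0.902. That of Rpgr, 0.944 to 1.16, held 1 but left out 0.902. With FPKM rescaled to a common total per library the median gene stood at 0.41, or at 0.11 without transcripts under 200 bases, so the sign of a small ratio turns with the scaling, and sides are given relative to the median gene.

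The levels of these genes were modest in both libraries. The median member had 5.66 FPKM in the mutant and 6.001 FPKM in the control, against 10.9 FPKM in the mutant and 11.6 FPKM in the control for the median gene compared. Arl3 stood far above the rest, at 60.2 FPKM in the mutant and 63.0 FPKM in the control. B9d1, Iqcb1, Tmem216 and Arl6 followed it, all between 15.2 and 21.4 FPKM in the mutant and between 17.2 and 26.3 FPKM in the control. By the mean of both libraries, Bbs1, Bbs10 and Nphp4 were the lowest. Nphp4, a scaffold of the NPHP module, was the one nearest the 1 FPKM filter, at 1.18 FPKM in the mutant and 1.45 FPKM in the control. The remaining members lay between 3.19 and 11.9 FPKM in the mutant and between 3.40 and 13.4 FPKM in the control.

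**Figure D1:**
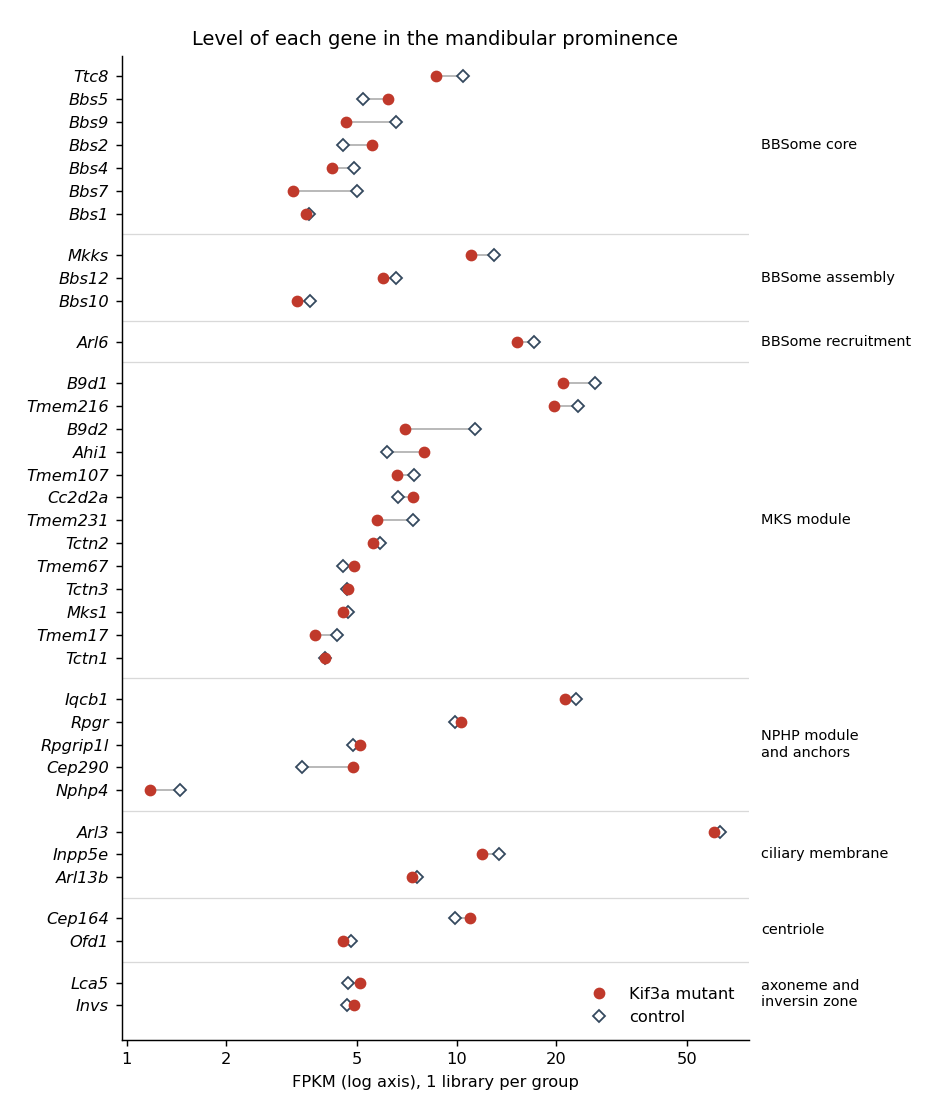
FPKM of the 36 genes in the mutant and the control library (log axis), 1 point per gene and library, with genes grouped by structure. Arl3 is the highest at 60.2 FPKM (mutant) and 63.0 FPKM (control), Nphp4 the lowest at 1.18 FPKM (mutant) and 1.45 FPKM (control), and the points of a gene lie close together throughout.

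Among the 11 BBSome genes, summed FPKM were 71.5 in the mutant and 80.5 in the control, and the median log2 ratio was -0.16. They split, 6 lying below the median gene and 5 above it. The 7 genes measured for the complex itself had a median of -0.18 and held the extremes of the group at both ends.

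Bbs7 encodes a beta-propeller subunit of the early BBSome core and lies at chr3:36573143-36613389. It had 3.19 FPKM in the mutant against 4.99 FPKM in the control, a log2 ratio of -0.52 and a mutant-to-control ratio of 0.64 with a counting interval of 0.535 to 0.764. Its values rested on about 215 fragments in the mutant and 310 fragments in the control. Bbs7 was the lowest BBSome gene relative to the control, and its promoter holds one of the paired X-boxes printed above.

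Bbs2 and Bbs5 lay on the other side. Bbs2, which pairs with Bbs7 in the core, had 5.53 FPKM in the mutant and 4.51 FPKM in the control (log2 ratio 0.24, ratio 1.23, interval 1.06 to 1.42). Bbs5, a subunit with phosphoinositide-binding domains, had 6.20 FPKM in the mutant and 5.20 FPKM in the control (log2 ratio 0.22), and its interval of 0.982 to 1.45 spanned 1. The early core subunits Bbs2, Bbs7 and Bbs9 thus did not lie on the same side of the median gene. Bbs9, a scaffold-like subunit at chr9:22475715-22888280, had 4.64 FPKM in the mutant and 6.56 FPKM in the control, a log2 ratio of -0.42 and a ratio of 0.707 (0.621 to 0.805). Its most abundant transcript alone gave -0.16, against -0.15 for the median gene taken the same way.

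The other core subunits lay nearer the median gene. Ttc8, the Bbs8 subunit, was the most abundant of the core at 8.66 FPKM in the mutant and 10.4 FPKM in the control, a log2 ratio of -0.24. Bbs4, a repeat protein linked to the centriolar satellites, had 4.19 FPKM in the mutant and 4.90 FPKM in the control, a ratio of 0.855 with an interval of 0.727 to 1.01. Bbs1, the subunit that binds Arl6, had 3.49 FPKM in the mutant and 3.56 FPKM in the control, within counting error of each other (ratio 0.98, 0.858 to 1.12).

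The chaperonin-like proteins Mkks, Bbs10 and Bbs12 help fold Bbs7 and build the core. Their median log2 ratio was -0.11, close to the median gene, with Mkks below it and Bbs10 and Bbs12 just above it. Mkks had 11.0 FPKM in the mutant and 13.0 FPKM in the control (ratio 0.85, 0.772 to 0.935). Bbs12 had 5.996 FPKM in the mutant and 6.57 FPKM in the control, and Bbs10 had 3.29 FPKM in the mutant and 3.60 FPKM in the control, both with intervals that spanned 1. Arl6, the small GTPase that recruits the BBSome to membranes, was the most abundant gene of the group. It had 15.2 FPKM in the mutant and 17.2 FPKM in the control, a log2 ratio of -0.16 and a ratio of 0.886 (0.793 to 0.99).

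The 18 transition zone genes summed to 146 FPKM in the mutant and 159 FPKM in the control. Their median log2 ratio was -0.05, and 7 of 18 lay below the median gene. The 13 MKS module genes had a median of -0.06 and the 5 NPHP module and anchor genes a median of 0.06. Both the lowest and the highest of the 36 genes belonged to the transition zone.

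The MKS module holds small B9-domain proteins, membrane proteins and their cytoplasmic partners. The B9 proteins Mks1, B9d1 and B9d2 form a complex of their own and did not lie together. B9d2, at chr7:25680780-25686558, had 6.96 FPKM in the mutant against 11.3 FPKM in the control. Its log2 ratio was -0.63 and its ratio 0.613 (0.509 to 0.739), from about 193 fragments in the mutant and 288 fragments in the control. B9d1, the second most abundant of the 36, had 21.1 FPKM in the mutant and 26.3 FPKM in the control (log2 ratio -0.31, ratio 0.801, interval 0.704 to 0.91), but stood at -0.02 with the overall trend of ratio on transcript length removed. Mks1 had 4.51 FPKM in the mutant and 4.69 FPKM in the control, a log2 ratio of -0.04.

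Among the membrane proteins of the gate, Tmem231 and Tmem216 were the lowest relative to the control. Tmem231, at chr8:111912018-111933791, had 5.75 FPKM in the mutant and 7.36 FPKM in the control (log2 ratio -0.31, ratio 0.781, interval 0.686 to 0.887). Tmem216 had 19.7 FPKM in the mutant and 23.3 FPKM in the control, a log2 ratio of -0.23, which became 0.04 with that trend removed. The intervals of Tmem17, Tmem107 and Tmem67 all spanned 1. Tmem17 had 3.73 FPKM in the mutant and 4.35 FPKM in the control. Tmem107 had 6.61 FPKM in the mutant and 7.43 FPKM in the control. Tmem67, a Frizzled-like receptor also called meckelin, had 4.90 FPKM in the mutant and 4.51 FPKM in the control, the only one of these membrane proteins with the higher value in the mutant.

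The tectonics Tctn1, Tctn2 and Tctn3, secreted or membrane-anchored proteins of the same complex, all lay close to the control. Tctn1 had 3.99 FPKM in the mutant and 4.001 FPKM in the control. Tctn2 had 5.58 FPKM in the mutant and 5.86 FPKM in the control, and Tctn3 had 4.69 FPKM in the mutant and 4.66 FPKM in the control. Their log2 ratios were -0.00, -0.06 and 0.01. The intervals allowed ratios from 0.823 to 1.21 for Tctn1 and from 0.861 to 1.18 for Tctn3. Tctn1 and Tctn3 carry paired X-boxes, as does Ahi1, whose ratio was among the highest.

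Ahi1 encodes jouberin, a cytoplasmic partner of the MKS module, and lies at chr10:20952547-21080429. It had 7.99 FPKM in the mutant against 6.14 FPKM in the control, a log2 ratio of 0.33 and a ratio of 1.30 with an interval of 1.18 to 1.43. Cc2d2a, a C2-domain protein needed to assemble the module, had 7.37 FPKM in the mutant and 6.66 FPKM in the control, and its interval of 0.987 to 1.24 spanned 1. Its log2 ratio was 0.13 over all transcripts and -0.20 for the most abundant transcript alone.

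Cep290, the large coiled-coil protein of the Y-shaped links between microtubules and membrane, lies at chr10:100488289-100573655. It had 4.86 FPKM in the mutant against 3.40 FPKM in the control, a log2 ratio of 0.42 and a ratio of 1.43 (1.29 to 1.59). These values rested on about 1072 fragments in the mutant and 548 fragments in the control, which lay further apart than the summed FPKM. Cep290 is one of the genes whose transcript shares shifted, described below. Cep290 was the highest of the 36 relative to the control. Iqcb1, the Nphp5 protein that binds Cep290, had 21.4 FPKM in the mutant and 23.0 FPKM in the control, a log2 ratio of -0.10. Rpgrip1l, the Nphp8 scaffold, had 5.10 FPKM in the mutant and 4.86 FPKM in the control, and Rpgr, a GTPase regulator of the same region, had 10.3 FPKM in the mutant and 9.87 FPKM in the control. Both had a log2 ratio of 0.06 and an interval that spanned 1. For Nphp4 the log2 ratio was -0.17 and the interval, 0.653 to 1.01, was among the widest of the 36.

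The 3 ciliary membrane genes lay close together, between -0.16 and -0.05, with summed levels of 79.5 FPKM in the mutant and 84.0 FPKM in the control. Arl13b, the ciliary GTPase that activates Arl3, had 7.31 FPKM in the mutant and 7.60 FPKM in the control. Arl3 releases lipid-modified cargo inside the cilium, and its ratio was 0.956 (0.883 to 1.03). Inpp5e, the phosphoinositide 5-phosphatase carried in by that route, had 11.9 FPKM in the mutant and 13.4 FPKM in the control (ratio 0.889, 0.824 to 0.958).

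The 4 remaining genes act at the centriole or along the axoneme and had a median log2 ratio of 0.08. Cep164, the distal appendage protein that docks the mother centriole to the membrane, had 10.9 FPKM in the mutant and 9.87 FPKM in the control (ratio 1.11, 1.03 to 1.20). Ofd1, a centriole and satellite protein, had 4.52 FPKM in the mutant and 4.80 FPKM in the control. Invs, which marks the inversin compartment of the proximal axoneme, had 4.90 FPKM in the mutant and 4.66 FPKM in the control. Lca5, an axonemal partner of intraflagellar transport, had 5.10 FPKM in the mutant and 4.68 FPKM in the control. The intervals of Ofd1, Invs and Lca5 spanned 1. Cep41 was found under Tsga14, its older symbol in RefSeq, at 6.06 FPKM in the mutant and 6.57 FPKM in the control (ratio 0.923, 0.820 to 1.04), and was kept apart from the 36.

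**Figure D2:**
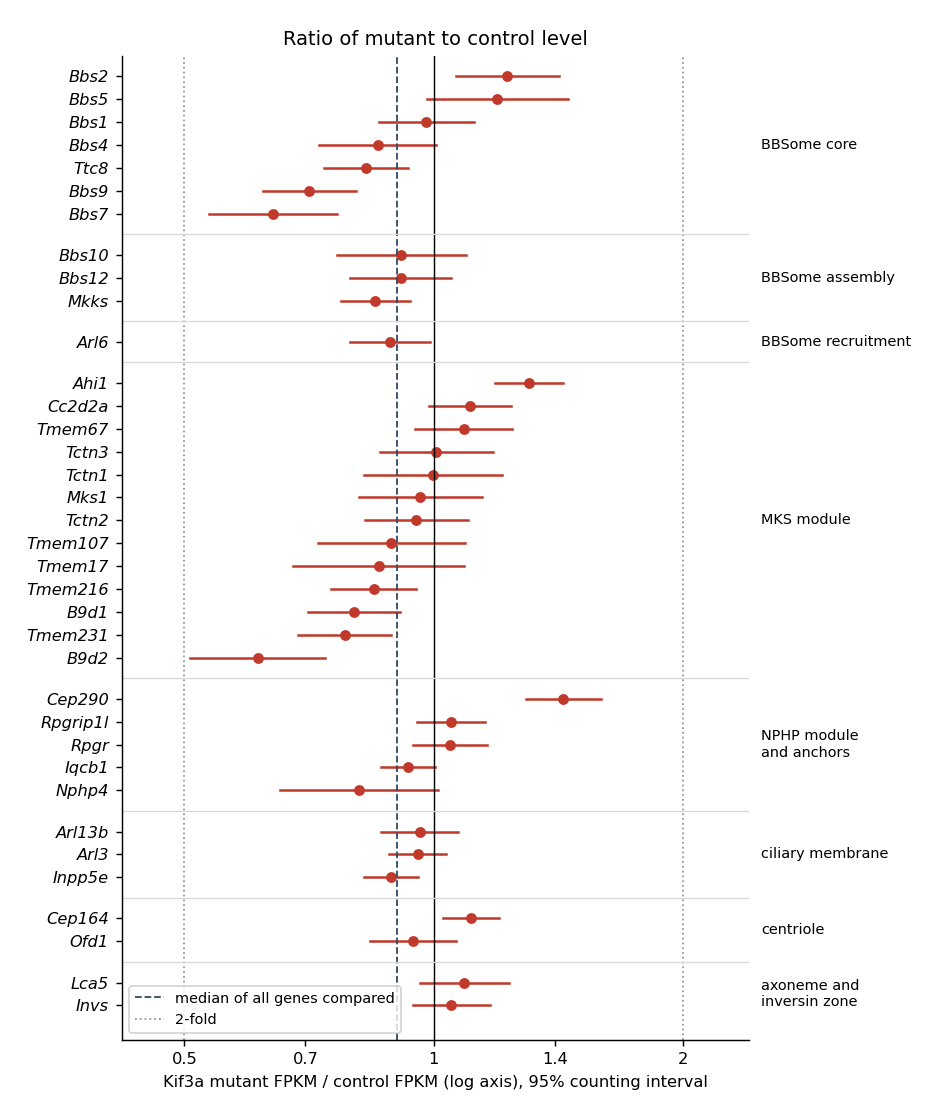
Mutant-to-control ratio of each of the 36 genes, grouped by structure. On the scale log2((mutant + 1)/(control + 1)), the median gene stood at -0.13 and the middle 80% of genes between -0.47 and 0.28. By their values on that scale, Ahi1 and Cep290 lay above that range, Bbs7 and B9d2 below it, and the other 32 within it.

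The ratios of genes with and without an X-box overlapped widely. The 5 measured genes with the paired form ranged from -0.52 (Bbs7) to 0.33 (Ahi1), with a median of -0.00. The 15 with the GTTGCC arm ranged from -0.63 to 0.33, with a median of -0.04, and the 20 with neither from -0.42 to 0.42, with a median of -0.11.

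Transcript length moved with the ratio in these libraries. Spearman's rho between the length of the most abundant transcript and the log2 ratio was 0.41 across the 12259 genes and 0.49 across the 36 members, genes of the same libraries and not independent replicates. Among all genes with transcripts of up to 1000 bases the median log2 ratio was -0.30, and it was 0.11 among those over 5000 bases. The members in those classes had medians of -0.31 (3 genes) and 0.06 (6 genes). B9d2, at 995 bases, was in the shortest class and Cep290, at 8006 bases, in the longest.

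With the lowess trend on length removed, Cep290, summed over its transcripts, stood at 0.21 and was no longer 1.25-fold from the typical gene. This holds for the sum only. The 8006-base transcript alone had a log2 ratio of 0.84, where the trend at that length was 0.20. B9d2 stood at -0.35 and Bbs7 at -0.36. Bbs5 at 0.46, Bbs2 at 0.38 and Ahi1 at 0.34 then had the highest values of the 36. On this scale 3 of 36 were at least 1.25-fold higher, against 10.8% of all genes, and 2 of 36 lower, against 9.36%, or 5 of 36 against 20.2% in either direction. Arl3, with a transcript of 822 bases, stood at 0.23 instead of -0.06. The group medians were -0.03 for the BBSome, 0.10 for the transition zone, 0.05 for the ciliary membrane and 0.06 for the further genes, against -0.00 for all genes. The cause of the length trend was not tested.

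**Figure D3:**
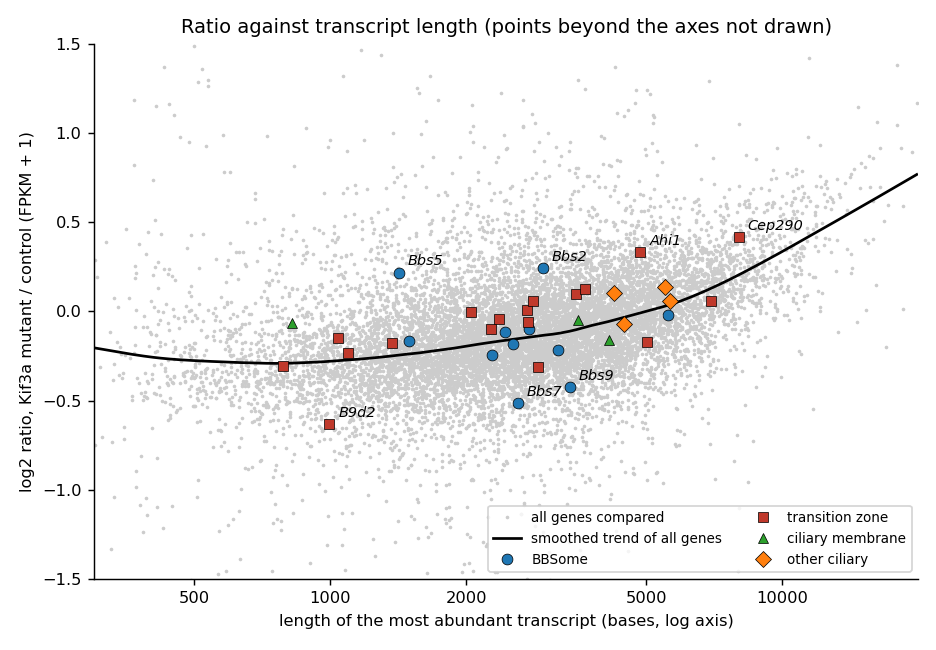
Log2 ratio of mutant over control against the length of the most abundant transcript (log axis) for all 12259 genes and the 36 members, with the lowess trend as a line. B9d2 lies far below the trend for its 995 bases, and Cep290, at 8006 bases, stands 0.21 above it.

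Sums over transcripts hid shifts between them in a few genes. The 36 genes had 101 transcripts, all with an estimate marked as complete in both tables, and 29 genes had more than 1. In 2 genes the share held by a transcript differed by over 20 percentage points between libraries. In Cep290, the transcript of 8006 bases had 4.86 FPKM in the mutant and 2.27 FPKM in the control. A transcript of 3012 bases from the 3′ part of the gene (chr10:100544425-100573655) was at 8.22e-06 FPKM in the mutant and 1.12 FPKM in the control, 33.1% of the gene's control FPKM. The long transcript alone thus gave a log2 ratio of 0.84. In Bbs12, the transcript of 2434 bases had 4.48 FPKM in the mutant and 6.57 FPKM in the control, while that of 2347 bases had 1.52 FPKM in the mutant and 0.00104 FPKM in the control. The ratio of the longer Bbs12 transcript alone was -0.47 on the log2 scale. The next largest shift, 18.9 points, was in Cc2d2a. Cufflinks divides fragments among overlapping transcripts by estimation, and the error of these shares was not tested.

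**Figure D4:**
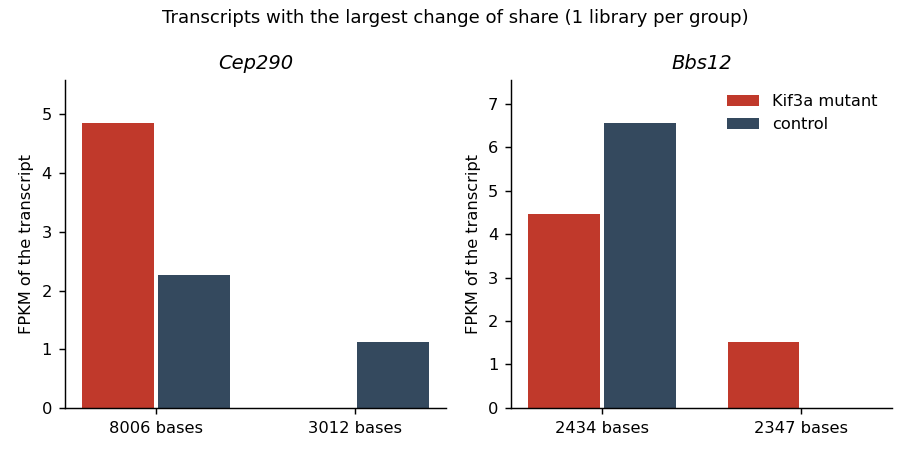
FPKM of the transcripts of Cep290 and Bbs12 in the mutant and the control library, with each bar starting at 0. The 3012-base Cep290 transcript is near 0 in the mutant and at 1.12 FPKM in the control, and the 2347-base Bbs12 transcript is at 1.52 FPKM in the mutant and near 0 in the control.

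For 7 of the 36 genes another gene overlaps the locus, and the strandedness of the libraries was not given in the sources used here, so shared reads could be split between them. Cep290 overlaps 4930430F08Rik, which had 6.13 FPKM in the mutant and 4.71 FPKM in the control, the same side as Cep290. Tmem216 overlaps the splicing factor gene Cpsf7 (30.4 FPKM in the mutant, 30.1 FPKM in the control). Inpp5e overlaps Pmpca (30.6 FPKM in the mutant, 32.2 FPKM in the control), Invs overlaps Tex10 (34.3 FPKM in the mutant, 31.3 FPKM in the control) and Tctn1 overlaps Hvcn1 (6.56 FPKM in the mutant, 6.89 FPKM in the control). Mkks overlaps 2210009G21Rik and Rpgr overlaps Srpx.

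Genes that work with these complexes gave a like picture. The 7 lists of BBSome partners, transition zone genes outside the 37, lipid cargo carriers, distal appendage proteins, EvC zone genes, ciliary receptors and ciliogenesis transcription factors held 50 genes above the filter. None of them differed by 2-fold, their median log2 ratio was -0.04 and they ranged from -0.39 to 0.70. Of the 50, 21 lay below the median gene and 29 above it.

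The 10 BBSome partners, among them Rab8 and Rab11 pathway genes, had a median of -0.23, below the median gene like the BBSome genes, but -0.02 with the length trend removed, close to all genes. Lztfl1, a regulator of BBSome entry into cilia, was the highest at 12.2 FPKM in the mutant and 10.4 FPKM in the control. Rab11a, a recycling GTPase, was the lowest at 28.9 FPKM in the mutant and 37.8 FPKM in the control. The 11 transition zone genes outside the 37 had a median of -0.05, the same as the listed ones. Cspp1, a microtubule-binding ciliary protein, had the highest ratio of the 11, a log2 value of 0.36. Cby1, the lowest, had 15.7 FPKM in the mutant and 20.8 FPKM in the control.

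All 8 distal appendage and centriole cap genes above the filter lay above the median gene, with a median log2 ratio of 0.20. With the length trend removed the median was 0.15 and 6 of the 8 lay above the typical gene, with Fbf1 at -0.11 and Ttbk2 at -0.05 below it. Cep97 was the highest at 6.15 FPKM in the mutant and 4.50 FPKM in the control, and Fbf1 the lowest with a log2 ratio of -0.09. Among the 5 lipid cargo carriers the median was -0.02. Unc119, a carrier of myristoylated proteins released by Arl3, had 39.0 FPKM in the mutant and 50.6 FPKM in the control. The 4 EvC zone genes, which relay Hedgehog signals at the ciliary base, had a median of -0.13, from -0.22 for Iqce to -0.01 for Evc. The 7 ciliary receptor and Hedgehog cargo genes had a median of -0.14, from Ptch1, the Hedgehog receptor, at 38.3 FPKM in the mutant and 47.7 FPKM in the control, to Gpr161, a negative regulator of the pathway, with a log2 ratio of 0.34.

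The ciliogenesis transcription factors had the highest median of these 7 lists at 0.30, over 6 genes above the filter, which were Myb and the X-box binding factors Rfx1, Rfx2, Rfx3, Rfx5 and Rfx7. Rfx7 had 19.95 FPKM in the mutant and 11.9 FPKM in the control, and Rfx3 had 6.10 FPKM in the mutant and 3.67 FPKM in the control. Their log2 ratios of 0.70 and 0.60 stood at 0.50 and 0.32 with the length trend removed. Rfx2 lay on the other side, at 1.66 FPKM in the mutant and 2.29 FPKM in the control. Without that correction no member of the 36 was as far above the control as Rfx7 or Rfx3, but with it Bbs5, Bbs2 and Ahi1 stood higher than Rfx3.

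Genes of motile cilia, the beating kind built by multiciliated cells, were mostly at low levels in both libraries. Foxj1, the master regulator of motile cilia, had 0.619 FPKM in the mutant and 0.463 FPKM in the control, and the axonemal gene Hydin had 0.0117 FPKM in the mutant and 0.0218 FPKM in the control. Of 18 listed genes 13 were found and 4 were above the filter (Ccdc39, Ccdc40, Tekt1 and the broadly expressed tubulin Tubb4b). Of the other kinesin-2 genes, Kif3b had a log2 ratio of -0.03, Kifap3 of -0.21 and Kif3c of -0.35. Kif17, below the filter, had 0.470 FPKM in the mutant and 0.180 FPKM in the control, a ratio of 2.60 (1.35 to 5.35).

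**Figure D5:**
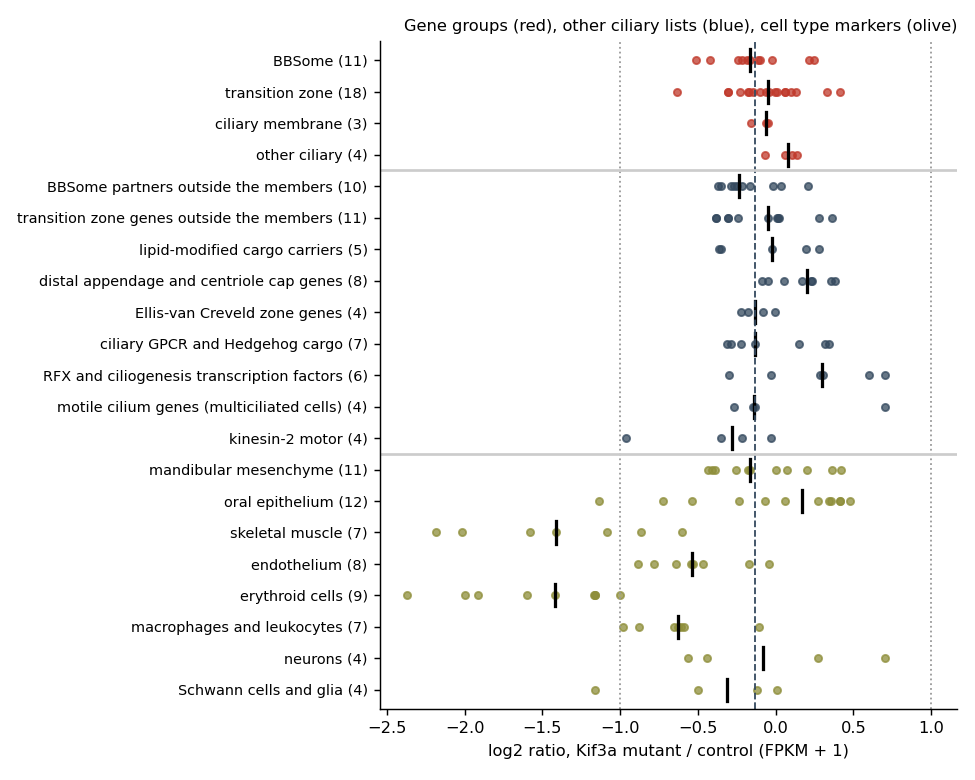
Log2 ratio of mutant over control for each gene above the filter in the member groups, the pathway lists and the cell type marker lists, 1 point per gene, with a bar at each median and a dashed line at the median gene, -0.13. The ciliogenesis transcription factors have the highest median of the 7 pooled lists at 0.30, and the BBSome partners the lowest at -0.23.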

How the data were processed

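RNA was measured in 2 libraries of pooled mandibular prominences, 1 per group, and groups were taken from the genotype label. The authors deposited 1 transcript table per library, whose naming gives Cufflinks as the tool; its version, the aligner and strandedness were not given in the sources. Per the file headers, each of 59120 lines holds a locus, a length in bases, a coverage signal, an FPKM value and a status. Each table had 65 lines whose columns were displaced; they were left out, and 59055 transcripts were used. Coverage, the deposited signal, was used with length to approximate fragments. The product of both was divided by the bases per fragment, 153.3 in the mutant and 156.0 in the control. These were medians of that product between preset bounds of 80 and 220, over genes with 1 transcript of over 1500 bases. Fragment counts and interval widths depend on this choice.

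The submitters' processing notes name mm9, but 51.8% of 45475 transcripts had a start that, plus 1, equalled one in GENCODE M21 on GRCm38, so coordinates are given 1-based on GRCm38. FPKM were summed per gene symbol, filtered at a mean of 1 and compared as log2 ratios with a pseudocount of 1, with no test. Intervals are exact Clopper-Pearson ones at 95% on the approximate fragments, rescaled to the FPKM ratio. Length was removed with lowess (span 0.2, statsmodels 0.14.6) in Python 3.11.15 with pandas 2.3.3, numpy 2.4.6 and scipy 1.17.1. The ratio and trend steps were tested on simulated data. Members, lists and thresholds were chosen with earlier results of these data known. All 36 members are named. Of each pathway list, the genes with the highest and lowest ratio are named, along with any 2-fold apart, except some that are not reported here. The 1.25-fold bar and the further names Foxj1, Hydin, Rfx3 and the kinesin-2 genes were chosen after their values were seen. Alternatives changed the pseudocount, filter, scaling, transcript summary and overlapping members.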

Additional observations from a re-analysis of the deposited data

How the results depend on the processing

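No paired analysis was possible because each group had 1 library, and for the same reason no replicate could be left out. The count of members at least 2-fold apart was 0 in all 14 settings. Rescaling FPKM to a common total per library (TPM-like) gave medians of 0.47 for all members, 0.39 for the BBSome, 0.47 for the transition zone and 0.49 for the ciliary membrane, and leaving transcripts under 200 bases out of that total gave 0.17, 0.089, 0.19 and 0.20. The median gene moved with them, to 0.41 and 0.11. The ciliary membrane median was 0.067 when centred on the median gene, 0.071 with upper quartile scaling and 0.051 with the length trend removed, against -0.06 as reported. The median gene itself stood at -0.13 as reported and near 0 in those settings, so the signs are not comparable. Measured from the median gene, the ciliary membrane median lay above in 13 of 14 settings, with values from -0.0094 to 0.0884. Relative to the median gene, the BBSome median lay below in all 14 settings, by -0.1101 to -0.0058. The transition zone median lay above in all 14, by 0.0020 to 0.1085, so the smallest margins were close to 0. All settings re-use the same 2 libraries, and some, such as centring on the median gene, cannot change a side. Of single members, 13 lay above the median gene and 9 below it in each of the 11 or 12 settings that kept them above the filter, and 14 changed sides. The 4 members 1.25-fold above the median gene became 0 with a pseudocount of 5 and 2 without the FPKM filter, and the 2 members below it became 1 with a pseudocount of 5 and 1 with a minimum of 5 FPKM, but 3 with a pseudocount of 0.1, without the filter, in both TPM-like scalings and with the most abundant transcript alone. These shares rest on genes of 139 to 1407 fragments in the mutant and 151 to 1406 fragments in the control, and ratios near 1 were not resolved at this depth. The settings with Cep41 under its older symbol, without members that overlap another gene, and the 1.25-fold bar were chosen after seeing the data.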

Other observations

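Several members share a promoter region with a gene read in the opposite direction. In the GENCODE M21 annotation, 36 of the listed genes were matched by symbol. Of these, 9 (25%) had a protein-coding neighbour on the other strand whose start lay within 1000 bases in either direction. The share was 10.9% over all protein-coding genes. The neighbours of Cep290, Arl3 and Ofd1 had higher values in the mutant. Tmtc3, whose start lies 208 bases from that of Cep290, had 12.2 FPKM in the mutant and 9.47 FPKM in the control, a log2 ratio of 0.33 beside 0.42 for Cep290. The 5 other neighbours found under their GENCODE symbol had ratios from -0.36 to -0.14, while the members beside them (Bbs12, Tctn3, Tmem67, Rpgrip1l and Invs) ranged from -0.11 to 0.10. Slx4ip, the neighbour of Mkks, was not found under that symbol, and older symbols of neighbours were not searched. Fto, 263 bases from Rpgrip1l, had 25.4 FPKM in the mutant and 32.9 FPKM in the control, and Rpgrip1l 5.10 FPKM in the mutant and 4.86 FPKM in the control. No relation between the partners was tested.

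Among the motile cilium genes, Ccdc39, which sets the repeat length of the motile axoneme, had 1.99 FPKM in the mutant and 0.832 FPKM in the control, a ratio of 2.39 with a counting interval of 1.81 to 3.17. Its log2 ratio of 0.71 was above that of all 36 members, and with the length trend removed it stood at 0.80.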
